A study of Mus musculus with 6 samples.

Results

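Expression of the SUMO proteins *Sumo2* and *Sumo3*, of both subunits of the SUMO activating enzyme (E1), *Sae1* and *Uba2*, and of the PIAS family of SUMO ligases, *Pias1*, *Pias2*, *Pias3* and *Pias4*, was examined in RNA-seq of inguinal white adipose tissue (iWAT). These 8 genes were taken by symbol from the 55573 genes listed in the data, and they were chosen with earlier results of these data known. All 8 had enough reads to be tested, among 16868 genes tested in all.

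Tissue came from 3 Wt and 3 mutant male mice, all C57BL/6NTac, 3 months old, fed regular chow and untreated, with 1 library per mouse. The mutant mice are homozygous for a global knock-in that replaces lysines in the thyroid hormone receptor alpha gene *Thra* (THRA K283Q/K288R). The knock-in is present in every cell type and from the start of life. K283 is a site at which the receptor is joined to SUMO, and K288 is used if K283 is blocked. Another such site was left unchanged, and the authors reported sumoylated THRA in subcutaneous fat of mutant mice as reduced but still measured. The purpose of the comparison was to see how loss of K283 and K288 as attachment sites on THRA changed gene expression in fat. The genes described here make up the SUMO machinery that would act on such sites. Values are CPM, that is reads scaled to library size, with a further factor for each mouse applied by the authors (normalized CPM).

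SUMO proteins are small relatives of ubiquitin that are attached to lysines of other proteins. The E1, a dimer of the proteins encoded by *Sae1* and *Uba2*, activates SUMO with ATP, a conjugating enzyme takes it over, and ligases such as the PIAS proteins help pass it to selected substrates. Many substrates are nuclear, nuclear receptors among them, and *Sumo2* and *Sumo3* encode modifiers that are nearly the same after processing and can form chains. SENP proteases mature SUMO and take it off again. In fat, sumoylation of nuclear receptors, PPARγ among them, is known to modulate their activity.

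Reads counted for the listed genes came to 19607423 to 24228381 per library, and 3 reads corresponded to 0.126 to 0.157 normalized CPM. Of the 16868 genes tested, 8.11% were called at an FDR of 0.05 (limma). *Thra* itself had 147, 128 and 117 normalized CPM in Wt and 170, 140 and 137 in mutant mice, a log2 difference of 0.19 (SE 0.13, limma adjusted p = 0.404), and since the knock-in changes codons and not the gene's presence this level does not check the labels. The difference of *Thra* was 0.09 without mutant mouse 1 and 0.40 after a correction for GC content. Adipocyte markers summed to 11731 to 16775 in Wt and 10099 to 15998 in mutant mice and none of them was at 0 in any mouse. Other cells were present too. B and T cell markers summed to 257 to 618 in Wt mice and to 333 and 504 in 2 mutant mice, but to 5.03 in mutant mouse 1. Mesothelial markers were higher in the mutant mice, 36.0 to 74.3 against 4.72 to 31.6 in Wt, with 6 of 7 called higher and *Upk3b*, *Upk1b*, *Wt1* and *Bnc1* at 0 in at least 1 mouse. Progenitor markers also separated the genotypes, at 643 to 708 in Wt and 710 to 965 in mutant mice, with 0 of 4 called. Skeletal muscle markers summed to 10042 to 21598 in Wt and 15898 to 24809 in mutant mice, with 1 of 6 called higher, and epithelial markers to 64.8 in Wt mouse 1 and 3.56 to 9.51 in the others. In bulk tissue, fewer cells of a type and less RNA per cell cannot be told apart.

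The coding sequences of both SUMO genes are shown first, because the level measured for *Sumo2* may depend on them, which was not tested. Sequences are from GRCm38 with GENCODE M21 annotation, 5′ to 3′ on the gene's strand, and capitals mark bases that differ from the *Sumo2* coding sequence. *Sumo2* lies on the minus strand at chr11:115523102-115536276. *Smt3h2-ps4* (minus strand, chr1:14839869-14840156) and *Gm10241* (minus strand, chr16:20176727-20177012) are processed pseudogenes, copies of the *Sumo2* mRNA inserted elsewhere in the genome. *Sumo3* lies on the plus strand at chr10:77606097-77618331.
Sumo2: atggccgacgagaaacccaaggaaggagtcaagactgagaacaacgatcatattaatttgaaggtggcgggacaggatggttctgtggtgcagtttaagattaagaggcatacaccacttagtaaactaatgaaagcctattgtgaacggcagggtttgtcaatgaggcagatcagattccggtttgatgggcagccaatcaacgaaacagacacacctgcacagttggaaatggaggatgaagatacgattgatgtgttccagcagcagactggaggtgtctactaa
Smt3h2-ps4: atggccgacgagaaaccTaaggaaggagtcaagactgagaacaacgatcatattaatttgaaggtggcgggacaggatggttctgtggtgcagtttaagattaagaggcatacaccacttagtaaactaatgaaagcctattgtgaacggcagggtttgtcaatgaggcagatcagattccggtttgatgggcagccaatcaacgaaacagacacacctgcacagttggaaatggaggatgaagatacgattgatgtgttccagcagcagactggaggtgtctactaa
Gm10241: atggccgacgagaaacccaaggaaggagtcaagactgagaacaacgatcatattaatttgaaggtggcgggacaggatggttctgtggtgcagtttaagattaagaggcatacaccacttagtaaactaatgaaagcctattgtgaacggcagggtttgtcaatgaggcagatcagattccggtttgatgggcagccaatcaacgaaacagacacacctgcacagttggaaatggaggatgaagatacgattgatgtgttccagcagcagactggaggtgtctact
Sumo3: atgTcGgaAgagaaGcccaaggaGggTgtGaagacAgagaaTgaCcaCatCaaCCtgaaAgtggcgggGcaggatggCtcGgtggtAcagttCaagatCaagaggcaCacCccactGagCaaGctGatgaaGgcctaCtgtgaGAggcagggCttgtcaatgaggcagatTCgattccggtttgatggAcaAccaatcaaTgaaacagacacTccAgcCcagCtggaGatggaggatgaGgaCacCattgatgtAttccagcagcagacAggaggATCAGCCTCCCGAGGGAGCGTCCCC
*Sumo3* is shown from its start codon to base 300 of 333. The copy in *Smt3h2-ps4* was identical to *Sumo2* at 287 bases, the only difference being C18T, counted from the first base of the start codon, with *Sumo2* first. *Gm10241* matched at 286 bases with no substitution and lacked 2. *Sumo3* differed far more, with 49 substitutions and 48 inserted bases over 336 aligned positions (70.2% identical), and its longest run in common with *Sumo2* was 17 bases. A stretch of 50 coding bases therefore separates *Sumo3* from *Sumo2*, but not *Sumo2* from all of its pseudogenes.

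Sharing was counted over all windows of 50 bases. Each of the 239 coding windows of *Sumo2* (100%) also occurred in a transcript of another gene, and of the 1002 windows of its whole 1051-base transcript 303 (30.2%) did. The windows were shared with 14 genes, of which 11 were pseudogenes. The listed reads of the pseudogenes were few, with 0 to 3 reads in a mouse for the 11 together, 9 reads over 6 mice, and 6 of them at 0 reads in all mice. The protein-coding gene *Samd8*, which shares 23 windows, had far more, 735 to 887 reads in a mouse. *Sumo3* shared 297 of 2581 windows (11.5%), and 173 of its 284 coding windows (60.9%). All were shared with *Gm49325*, an annotated gene that overlaps it on the same strand and had 0 reads in all mice. *Pias2* shared 15 of 3011 windows (0.498%), and *Sae1*, *Uba2*, *Pias1*, *Pias3* and *Pias4* shared none. How reads that match several genes were counted is not given in the sources used here, so the level of *Sumo2* is uncertain in both genotypes. The same limit applies to *Sumo3* over its shared windows.

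**Figure D1:**
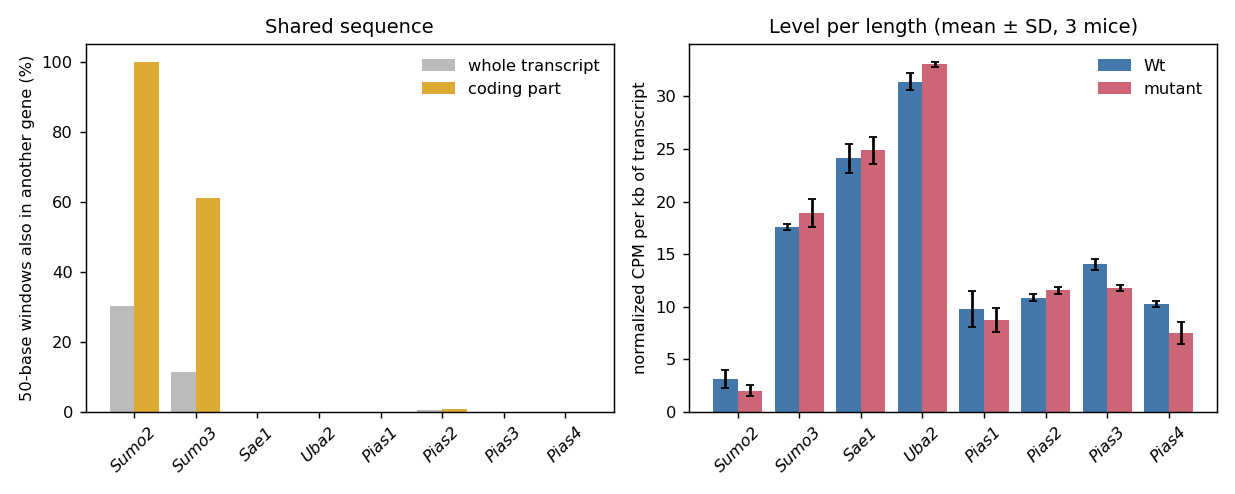
Left, percentage of 50-base windows of each gene's transcript (grey) and of its coding part (yellow) that also occur in a transcript of another gene. Right, mean normalized CPM per kb of the longest coding transcript in Wt (blue) and mutant (red) mice, with SD over 3 mice. All coding windows of *Sumo2* are shared, and its level per length is the lowest of the 8 genes.

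Per kb of transcript, both E1 subunits had the highest levels and *Sumo2* the lowest listed level, a place that is as uncertain as its value. In Wt mice *Uba2* had 31.4 ± 0.829 normalized CPM per kb (SD, n = 3), *Sae1* 24.1 ± 1.39 and *Sumo3* 17.5 ± 0.268. The ligases followed, with *Pias3* at 14.0 ± 0.530, *Pias2* at 10.8 ± 0.327, *Pias4* at 10.3 ± 0.283 and *Pias1* at 9.78 ± 1.75, and *Sumo2* came last at 3.10 ± 0.836. The Wt values of *Pias2*, *Pias4* and *Pias1* overlapped, whereas the other neighbours in this order did not. In mutant mice *Uba2*, *Sae1* and *Sumo3* kept their places with 33.0, 24.9 and 18.9 normalized CPM per kb. *Pias3* (11.7) and *Pias2* (11.5) then overlapped, as did *Pias1* (8.72) and *Pias4* (7.52). As a share of the summed per-kb level of the ligases, *Pias2* went from 24.1% ± 0.920 in Wt to 29.2% ± 1.21 in mutant mice and *Pias4* from 22.9% ± 0.790 to 19.0% ± 1.71, while *Pias1* (21.7% and 22.0%) and *Pias3* (31.3% and 29.8%) overlapped. These shares must sum to the whole, so they are not separate measurements.

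Between genotypes, 0 of the 8 genes passed the FDR threshold of 0.05, against 8.11% of all genes tested (limma), 5.5% higher and 2.61% lower in mutant mice. edgeR on the recovered reads also called 0 of 8 (6.92% of all genes), and DESeq2 called 1, *Pias4*, as lower (12.6% of all genes, with 4.64% lower). Without adjustment, 2 of the 8 had p under 0.05 in limma, *Pias3* and *Pias4*, both lower in mutant mice, against 24.2% of all genes. The median log2 difference (mutant minus Wt) of the 8 genes was -0.06, beside -0.05 for all genes tested, with 4 above and 4 below 0. The genotypes did not overlap for 4 of the 8, *Pias3* and *Pias4* lower and *Uba2* and *Pias2* higher in mutant mice, and such separation was seen for 30.6% of all genes. With 3 mice in each genotype an exact permutation test cannot give a p below 0.1.

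**Figure D2:**
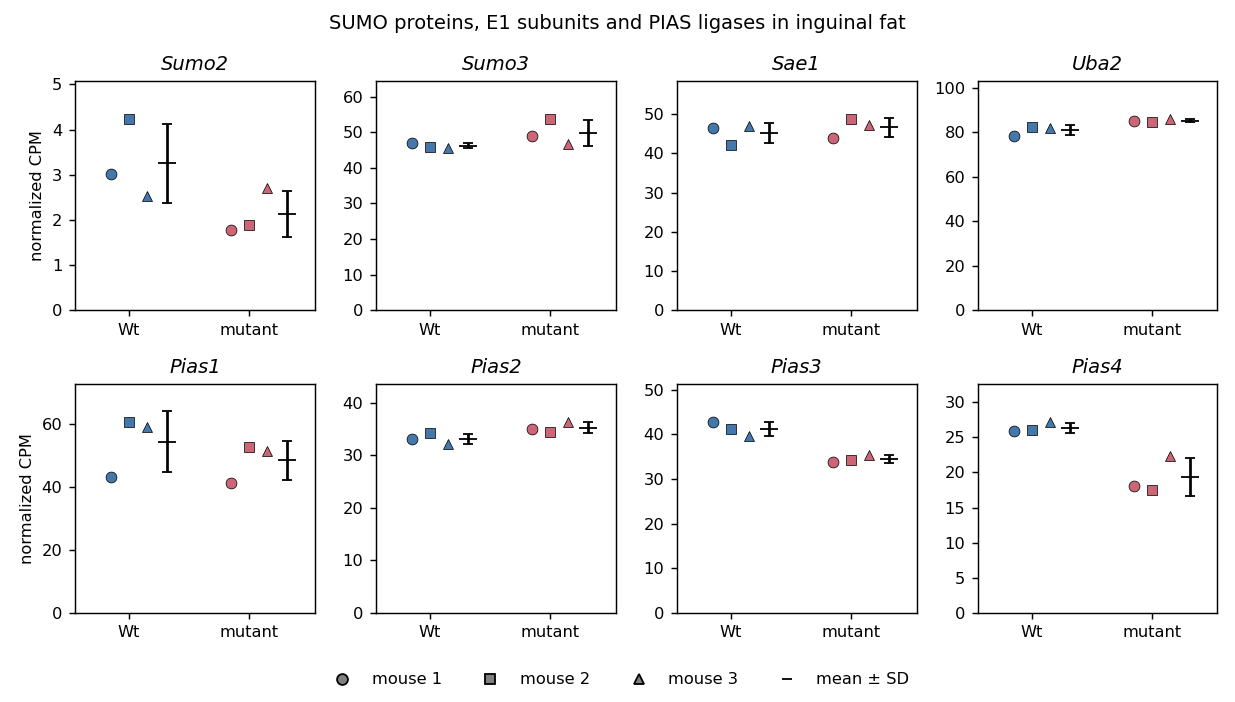
Normalized CPM of the 8 genes in each mouse, Wt in blue and mutant in red, with mean ± SD over 3 mice and every axis starting at 0. *Pias3* and *Pias4* lie lower in all 3 mutant mice than in any Wt mouse, *Uba2* and *Pias2* slightly higher, and the other 4 genes overlap.

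Of the SUMO proteins, *Sumo3* had the higher listed level, within the limits given above for both genes. Wt mice had 47.0, 45.8 and 45.7 normalized CPM, and mutant mice 48.9, 53.7 and 46.6. Wt mice were close to each other, and mutant mouse 3 lay within the Wt range. The log2 difference was 0.10 (SE 0.08, 95% interval -0.09 to 0.30, limma adjusted p = 0.453).

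*Sumo2* had 3.02, 4.23 and 2.52 normalized CPM in Wt mice (72, 87 and 60 reads) and 1.78, 1.88 and 2.71 in mutant mice (34, 42 and 58 reads). Mutant mice 1 and 2 were below every Wt mouse, whereas mutant mouse 3 was above the lowest Wt mouse. The log2 difference on the log2(value + 0.5) scale was -0.51 (SE 0.23, 95% interval -1.06 to 0.05), and it did not pass the threshold (limma adjusted p = 0.240). Without Wt mouse 2 it was -0.33. This interval is the widest of the 8 genes, and *Sumo2* also varied most between mice of 1 genotype (SD 0.878 around a mean of 3.26 in Wt mice), while *Uba2* varied least in mutant mice (SD 0.711 around 85.2).

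The ratio of *Sumo2* to *Sumo3* within a mouse, on the log2 scale, was -3.75, -3.29 and -3.93 in Wt and -4.44, -4.51 and -3.87 in mutant mice. The genotypes overlapped through mutant mouse 3. The means differed by -0.61 (exact two-sided permutation p = 0.2, adjusted over the 2 ratios tested 0.4). With pseudocounts of 0.1 and 1 in place of 0.5, this difference was -0.69 and -0.54.

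The E1 subunits differed little between genotypes. *Sae1*, the smaller subunit (minus strand, chr7:16320234-16387806), had 46.5, 42.2 and 46.9 normalized CPM in Wt and 44.0, 48.7 and 47.1 in mutant mice, a log2 difference of 0.04 (SE 0.08, 95% interval -0.15 to 0.24, limma adjusted p = 0.764). *Uba2*, the catalytic subunit (minus strand, chr7:34140688-34169599), had 78.6, 82.5 and 82.0 normalized CPM in Wt and 85.1, 84.5 and 86.0 in mutant mice. Every mutant mouse was above every Wt mouse for *Uba2*, but by a small margin, and for *Sae1* the genotypes overlapped through mutant mouse 1. The log2 difference of *Uba2* was 0.07 (SE 0.07, 95% interval -0.08 to 0.23, limma adjusted p = 0.517), and it was 0.0025 after a correction for GC content.

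Both subunits are needed in the dimer, and their ratio was therefore compared within each mouse. The log2 ratio of *Sae1* to *Uba2* was -0.75, -0.96 and -0.80 in Wt and -0.94, -0.79 and -0.86 in mutant mice. The 2 genotypes covered the same range, and the mean ratios of -0.84 ± 0.109 in Wt and -0.86 ± 0.0768 in mutant mice differed by -0.03 (exact two-sided permutation p = 0.8, adjusted 0.8).

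**Figure D3:**
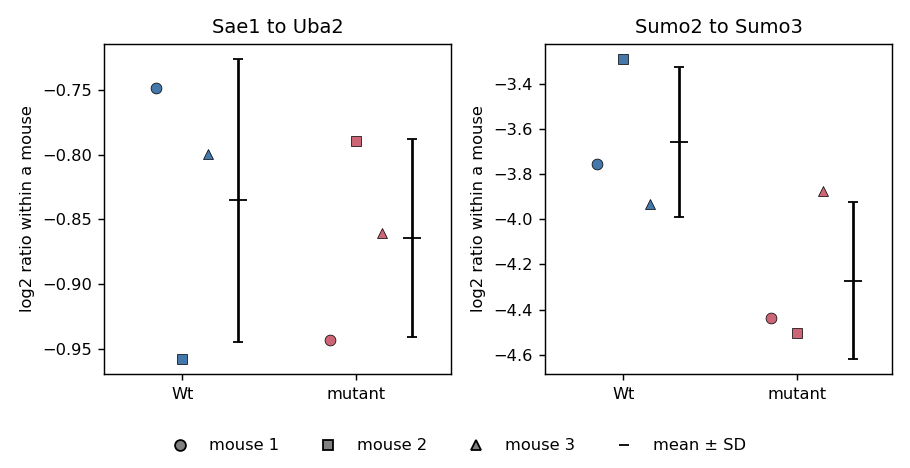
Log2 ratio of *Sae1* to *Uba2* (left) and of *Sumo2* to *Sumo3* (right) within each mouse, by genotype, with mean ± SD over 3 mice; the axes differ and do not start at 0. The E1 ratio covers the same range in both genotypes, and for the SUMO pair mutant mice 1 and 2 lie below all Wt mice.

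Of the ligases, *Pias4*, known for its part in the DNA damage response and as a transcriptional corepressor, had the lowest adjusted p. The gene lies on the minus strand at chr10:81153266-81167923. Its normalized CPM was 25.8, 26.1 and 27.2 in Wt mice, compared to 18.1, 17.5 and 22.4 in mutant mice. All 3 mutant mice were below the Wt mice, with mutant mouse 3 the nearest. The mutant mean was 73.3% of the Wt mean (19.3 ± 2.67 against 26.4 ± 0.727, SD, n = 3). The log2 difference was -0.45 (SE 0.12, 95% interval -0.72 to -0.17), with an adjusted p of 0.0695 in limma (0.00713 before adjustment). It passed the threshold with DESeq2 on the recovered reads (adjusted p = 0.0409) and in limma without mutant mouse 3 (log2 difference -0.55, adjusted p = 0.0416).

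*Pias3*, named as an inhibitor of activated STAT3 (plus strand, chr3:96696384-96706070), was at 42.8, 41.1 and 39.7 normalized CPM in Wt mice, compared to 33.7, 34.2 and 35.3 in mutant mice. The groups were narrow and separate, and the mutant mean was 83.6% of the Wt mean. The log2 difference was -0.25 (SE 0.07, 95% interval -0.43 to -0.08), with an adjusted p of 0.0934 in limma (0.0117 before adjustment).

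*Pias4* and *Pias3* had the most GC-rich transcripts of the 8 genes (58.2% and 55.6% GC). After a correction of each mouse for GC content, an alternative added after the data were seen, the log2 differences were -0.23 for *Pias4* and -0.15 for *Pias3* (limma adjusted p = 0.304 for both), and 5.9% of all genes were called. The mesothelial and progenitor markers given above also separated the genotypes, and their part in these differences was not tested. *Pias3* overlaps *Nudt17*, a gene on the opposite strand, by 4 bases, and *Nudt17* had 3.56, 5.64 and 9.72 normalized CPM in Wt and 0.576, 4.17 and 2.53 in mutant mice (limma adjusted p = 0.227).

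*Pias2*, which like its relatives regulates steroid receptor activity, had 33.2, 34.2 and 32.2 normalized CPM in Wt and 35.1, 34.5 and 36.4 in mutant mice. All mutant mice were above the Wt mice, the nearest pair by less than the spread within Wt. The log2 difference was 0.09 (SE 0.07, 95% interval -0.09 to 0.27, limma adjusted p = 0.482), and it was -0.01 after the GC correction.

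*Pias1*, a ligase for transcription factors (minus strand, chr9:62878368-62987924), varied more between mice of 1 genotype than between genotypes. It had 43.2, 60.8 and 59.2 normalized CPM in Wt and 41.5, 52.7 and 51.5 in mutant mice. Mouse 1 of each genotype was low, and the other 4 mice lay between 51.5 and 60.8. The log2 difference was -0.16 (SE 0.16, 95% interval -0.55 to 0.24, limma adjusted p = 0.574), and leaving out 1 mouse at a time moved it from -0.31 to -0.05. The coefficient of variation of *Pias1* was 17.9% in Wt and 12.7% in mutant mice.

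The mice that were low in *Pias1* were also those lowest in B and T cell markers within their genotype. Summed over the 6 markers, Wt mice had 257, 546 and 618 normalized CPM, and mutant mice 5.03, 333 and 504. *Sp100*, a nuclear body protein modified by SUMO, put the 6 mice in the same order as these markers, with 122, 184 and 237 in Wt and 70.8, 155 and 178 in mutant mice. *Pias1* was nearly equal in mouse 1 of both genotypes (43.2 and 41.5) although the summed markers there were 257 and 5.03. The part of these cells in the differences was not tested.

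**Figure D4:**
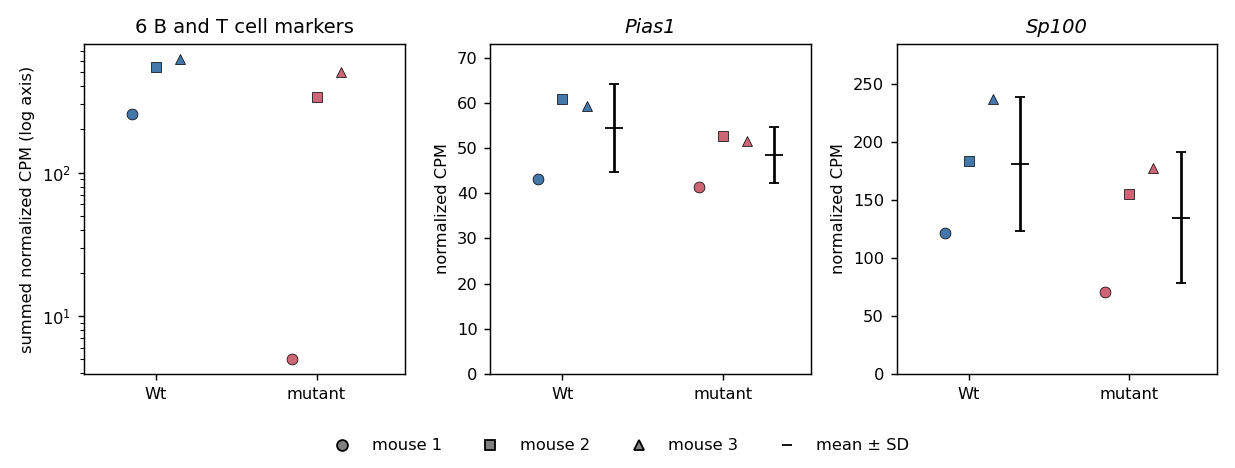
Summed normalized CPM of 6 B and T cell markers on a log axis (left) and normalized CPM of *Pias1* (middle) and *Sp100* (right) in each mouse, by genotype, with mean ± SD over 3 mice for the single genes. Mouse 1 is the lowest of its genotype in all 3 panels, and the summed markers of mutant mouse 1, 5.03, lie far below those of the other 5 mice.

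The 8 genes were set beside 22 other genes of the SUMO pathway, namely further ligases, SENP and DESI proteases, SUMO-targeted ubiquitin ligases and well known substrates. None of the 22 passed the threshold in limma, 5 had an unadjusted p under 0.05, all lower in mutant mice (12.0% of all genes tested were so), and edgeR on the recovered reads called 0. The median log2 difference was -0.17, beside -0.05 for all genes tested, with 16 below and 6 above 0. Of all 16868 genes tested, 9536 were below 0. For 8 of the 22 the mutant mice were all below the Wt mice, against 15.7% of all genes, and for 2 they were all above (14.9%).

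The largest differences in size were those of *Zmiz2*, *Pml* and *Sp100*. *Zmiz2*, which encodes a relative of the PIAS proteins with the same type of RING domain, had 119, 156 and 179 normalized CPM in Wt and 66.1, 92.3 and 108 in mutant mice, a log2 difference of -0.77 (SE 0.22, limma adjusted p = 0.0916). After the GC correction this difference was -0.53 (limma adjusted p = 0.252). The mutant mice were all below the Wt mice, and in both genotypes mouse 1 was the lowest and mouse 3 the highest. *Pml*, which organizes nuclear bodies rich in SUMO, had 66.6, 94.3 and 110 in Wt and 39.9, 66.7 and 83.3 in mutant mice, with overlap between the genotypes (log2 difference -0.54, SE 0.30, limma adjusted p = 0.327), and without mutant mouse 1 the difference was -0.24. *Sp100* gave -0.48 (SE 0.40, limma adjusted p = 0.482), and without mutant mouse 1 this was -0.07. Over all 6 mice *Pml* and *Sp100* had the order of the B and T cell markers, and *Zmiz2* had it within each genotype.

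Besides *Zmiz2*, the genes with an unadjusted p under 0.05, named after their values were seen, were *Rnf111*, a ubiquitin ligase that binds SUMO chains, *Trim28*, a corepressor, *Desi1*, a SUMO protease, and *Rangap1*, the Ran GTPase activator and a classic SUMO substrate. Their log2 differences lay between -0.38 (*Rnf111*, limma adjusted p = 0.182) and -0.23 (*Rangap1*, limma adjusted p = 0.182). *Senp6*, a protease that acts on SUMO chains, and *Desi2* were those with all mutant mice above the Wt mice (log2 differences 0.16 and 0.21, limma adjusted p = 0.273 and 0.209).

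**Figure D5:**
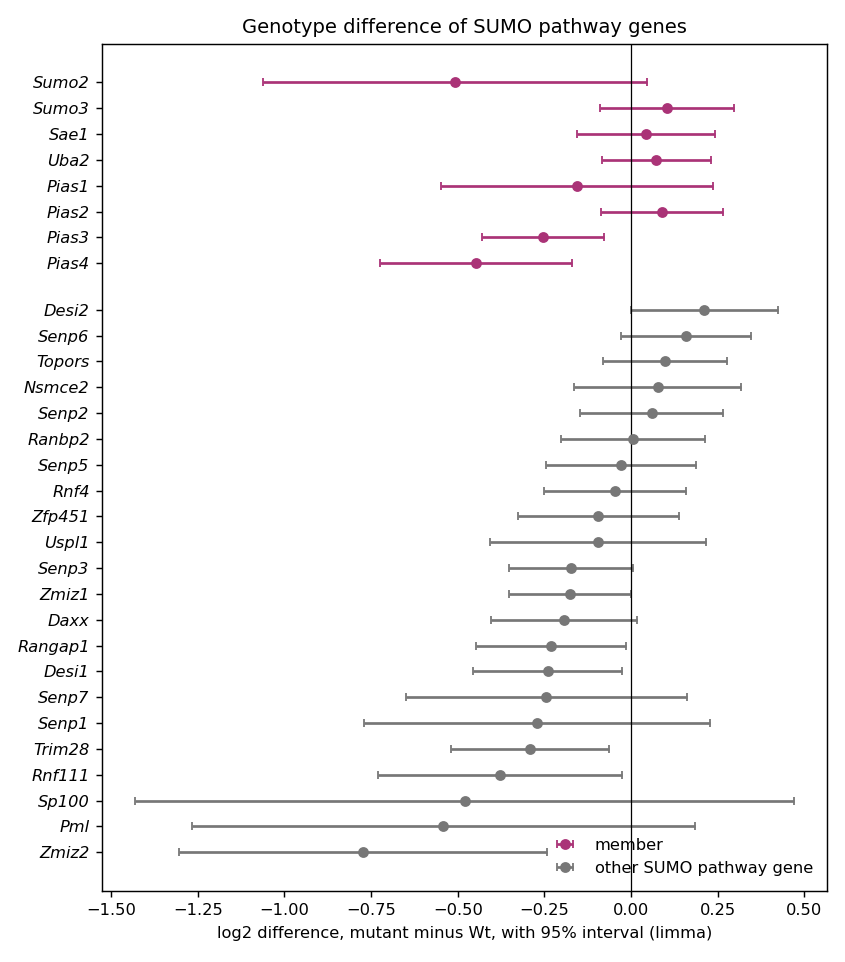
Log2 difference (mutant minus Wt) with 95% interval from limma for the 8 genes (purple) and for 22 other SUMO pathway genes in order of their difference (grey). No gene shown passes the FDR threshold, and the intervals of *Pias3* and *Pias4* exclude 0 before adjustment. Most of the other pathway genes lie below 0, as do 9536 of all 16868 genes tested.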

How the data were processed

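Total RNA was isolated from iWAT of 3 Wt and 3 mutant mice and sequenced by a core facility. The submitters' processing notes name Bowtie2 2.1.0, RSEM 1.2.15 and edgeR, with the build mm10 and no role for each tool. The use of strand, the annotation and the treatment of reads that match several genes are not given in the sources used here. The deposited values are a normalized signal per gene, CPM scaled for each mouse by the authors. All values above 0 (100%) were whole multiples of 1 read, within 0.01 read, which gave the reads counted for the listed genes in each mouse. There were 0 columns of other samples. Reads of mice of 1 genotype differed with a chi-square of 17.5 to 59.1 per degree of freedom, so they were not repeat counts of 1 library. That they were separate mice rests on the labels. Nothing says whether they were littermates.

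The test was limma (version 3.58.1, R 4.3.3) with a trended prior variance, fitted to log2(value + 0.5) of the 16868 genes kept by filterByExpr of edgeR 4.0.16 and adjusted by Benjamini-Hochberg with a threshold of 0.05. Differences are on that scale, which understates those of low genes. Ratios were differences of log2(value + 0.5) within a mouse and were compared by exact permutation. Alternatives were edgeR and DESeq2 1.42.0 on the recovered reads, other pseudocounts (0.1 and 1), scaling and filters (no filter, or 10 reads in every mouse), leaving each mouse out, and a block for the replicate number. A correction for GC content was added after the data were seen. The fit was tested on simulated data. Coordinates, lengths and shared windows are from GENCODE M21 on GRCm38, the assembly of mm10, to which 55480 identifiers matched.

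Genes named are the 8 members, *Thra*, in 2 lists of related genes those past the threshold or otherwise the 3 of largest difference, the gene most alike each member, and genes that overlap a member or carry its copies. Other genes were named after their values were seen. Members and lists were chosen with earlier results of these data known. A further 3 genes of the pathway list are not reported here.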

Additional observations from a re-analysis of the deposited data

How the results depend on the processing

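Over 16 alternatives, 120 of 128 log2 differences of the 8 genes kept their direction and their side of the threshold. The exceptions were 5 that passed it (*Pias4* 3 times, *Pias3* and *Pias1* once each) and 3 that changed sign near 0, namely *Pias2* (-0.0073 with the GC correction and -0.0073 with that correction and the replicate block) and *Sae1* (-0.0048 to 0.084 when 1 mouse was left out). The other filters and the replicate block leave the log2 differences themselves unchanged, so with these alone the direction could not change. Of the 8 genes, DESeq2 called 1 and leaving out 1 mouse gave 0 to 1. The other SUMO pathway genes called were 1 with DESeq2 (*Zmiz2*) and 0 to 0 when 1 mouse was left out. The related ubiquitin-like genes called were 1 with library size alone, 1 with no filter, 1 with at least 10 reads in every mouse, 0 with the GC correction and 0 to 1 when 1 mouse was left out. All genes called, 1368, became 2118 with DESeq2, 598 with at least 10 reads in every mouse and 554 to 1005 without 1 mouse, where fewer samples entered. The median of the 8 genes ranged from -0.10 to 0.013 without 1 mouse, the highest value being that without mutant mouse 1, and the mean log2 ratio of *Sae1* to *Uba2* differed by -0.091 to 0.014. The cause of these changes was not tested.

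The labels number the mice 1 to 3 in both genotypes. Same-numbered mice deviated together with correlations of 0.69, 0.06 and 0.56, and 2 of 3 numbers were matched best by their own. These correlations do not decide whether the numbers mark pairs. The labels do not say that they do, so the main fit did not take them as pairs. With the replicate block, 4063 genes were called, 2 of the 8 (*Pias3*, adjusted p = 0.0462, and *Pias4*, adjusted p = 0.0260, both limma), 5 other SUMO pathway genes and 6 related genes, while 24.1% of all genes were called. With the block and the GC correction together these were 3503, 1 (*Pias1*, log2 difference -0.24), 7 and 5, with 20.8% of all genes called, and *Thra* passed (log2 difference 0.40, limma adjusted p = 0.0112).

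Depth limits *Sumo2* most, at 34 to 87 reads in a mouse; the other 7 genes had 345 or more.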

Other observations

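In 25 genes of related ubiquitin-like systems (modifiers and activating or conjugating enzymes of ubiquitin, NEDD8, UFM1, ISG15, URM1 and the ATG pathway), 1 rose and 1 fell (limma, FDR 0.05), beside 8.11% called of all genes, and their median log2 difference was -0.07. *Atg3*, the conjugating enzyme that attaches LC3 to lipid in autophagy, rose in mutant mice, with 52.9, 51.3 and 50.4 normalized CPM in Wt and 69.2, 68.6 and 61.1 in mutant mice (log2 difference 0.36, SE 0.08, adjusted p = 0.0452). *Fau*, which encodes a ubiquitin-like protein fused to a ribosomal protein, fell, with 9.01, 11.6 and 10.7 in Wt and 5.45, 5.65 and 6.60 in mutant mice (log2 difference -0.77, SE 0.15, adjusted p = 0.0271). For both the genotypes did not overlap. Neither passed the threshold after the GC correction (adjusted p = 0.130 and 0.0949), and over 16 alternatives *Atg3* lost its call in 9 and *Fau* in 7.

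*Zbtb7a*, a transcriptional repressor gene on the plus strand at chr10:81135220-81152995, was named after its values were seen because it ends 270 bases from the end of *Pias4*, which is on the other strand. It had 115, 135 and 126 normalized CPM in Wt and 92.6, 93.6 and 99.2 in mutant mice, and it fell (log2 difference -0.39, SE 0.09, limma adjusted p = 0.0446), but it did not pass with edgeR (adjusted p = 0.0594) or after the GC correction (log2 difference -0.15, limma adjusted p = 0.387). As with *Pias4*, all mutant mice were below the Wt mice.

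The genes whose values over the 6 mice were most like those of each member were *Gen1* for *Sumo2*, *Rab38* for *Sumo3*, *Degs2* for *Sae1*, *Atp1b1* for *Uba2*, *Akr1cl* for *Pias1*, *Mir133a-2* for *Pias2*, *Anxa11* for *Pias3* and *Mir5125* for *Pias4*, with Pearson correlations of 0.990 to 0.999. These are the highest of 16867 others over only 6 points that share genotype and library, and they are given as a description. A correlation above 0.9 was reached by 31 genes for *Sae1* and by 801 for *Pias1*.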
